A study of Homo sapiens with 4 samples.

Results

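Intermediate filament genes were followed in H1299 cells, a human lung carcinoma line, through 10 genes chosen by name: vimentin (VIM), nestin (NES), the keratins KRT7, KRT8, KRT18 and KRT80, the lamins LMNA, LMNB1 and LMNB2, and the linker plectin (PLEC). All 10 were found among the 61541 gene rows of the count files, and all 10 passed the filter on low counts. Polyadenylated RNA was sequenced from 2 libraries of cells given ginseng nanoparticles and 2 libraries of cells given phosphate-buffered saline (PBS). These groups follow the treatment label, although the titles of the nanoparticle libraries also say control. Both groups were grown in Dulbecco's modified Eagle medium with serum and antibiotics. The labels used here give no dose, exposure time or plant part, and nothing says that the libraries came from separate cultures, so each p-value reflects how these libraries scatter, and that scatter may be technical. Reads counted to genes numbered 24979081 and 24863313 in the nanoparticle libraries and 22252686 and 22456882 in the PBS libraries. The study asked how the nanoparticles act on cancer cell migration.

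Intermediate filaments are rope-like polymers of proteins that share a coiled-coil rod. Vimentin forms the network of mesenchymal cells and of many invasive carcinoma lines, while keratins are built from obligate pairs of a type I chain, such as keratin 18, and a type II chain, such as keratin 8. Lamins form the meshwork under the inner nuclear membrane, and plectin, a plakin, ties filaments to each other, to actin and to adhesion sites. Co-expression of vimentin with simple keratins is a familiar feature of carcinoma cells that have lost epithelial traits.

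VIM had the highest level of the 10 genes in every library. On a per-length scale (TPM, transcripts scaled to a fixed total, with the length of the principal transcript) VIM was at 2880 and 2840 TPM with nanoparticles and at 2960 and 3030 TPM with PBS. KRT18 came next, at 1430 and 1420 TPM with nanoparticles and 1550 and 1560 TPM with PBS. KRT8 followed at 685 and 668 TPM with nanoparticles and 718 and 716 TPM with PBS. The order VIM, KRT18, KRT8 was the same in all 4 libraries, with no overlap between neighbours. Levels between genes depend on the length used: with the union of exons LMNA stood at 462 to 499 TPM across the 4 libraries and KRT8 at 348 to 376 TPM, the reverse of their order with the principal transcript.

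Among the lamins LMNA, which encodes lamins A and C, was highest, at 613 and 601 TPM with nanoparticles and 645 and 612 TPM with PBS. LMNB2, a B-type lamin, was at 298 and 293 TPM with nanoparticles and 293 and 292 TPM with PBS. LMNB1, the other B-type lamin, was lower than LMNB2 in every library, at 249 and 252 TPM with nanoparticles and 261 and 251 TPM with PBS. PLEC lay below the lamins at 140 and 143 TPM with nanoparticles and 126 and 129 TPM with PBS. KRT80, a type II keratin of differentiating epithelia, was at 50.5 and 47.9 TPM with nanoparticles and 47.2 and 46.5 TPM with PBS. KRT7, the simple keratin of glandular and lung epithelium, was at 9.03 and 8.93 TPM with nanoparticles and 10.7 and 10.1 TPM with PBS. NES, a partner of vimentin in progenitor cells, lay under 1 TPM in all 4 libraries, with 24 and 27 counts with nanoparticles and 32 and 28 with PBS. Summed over the 6 cytoplasmic filament genes, VIM held 57% and 56.9% of the TPM with nanoparticles and 55.9% and 56.4% with PBS.

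**Figure D1:**
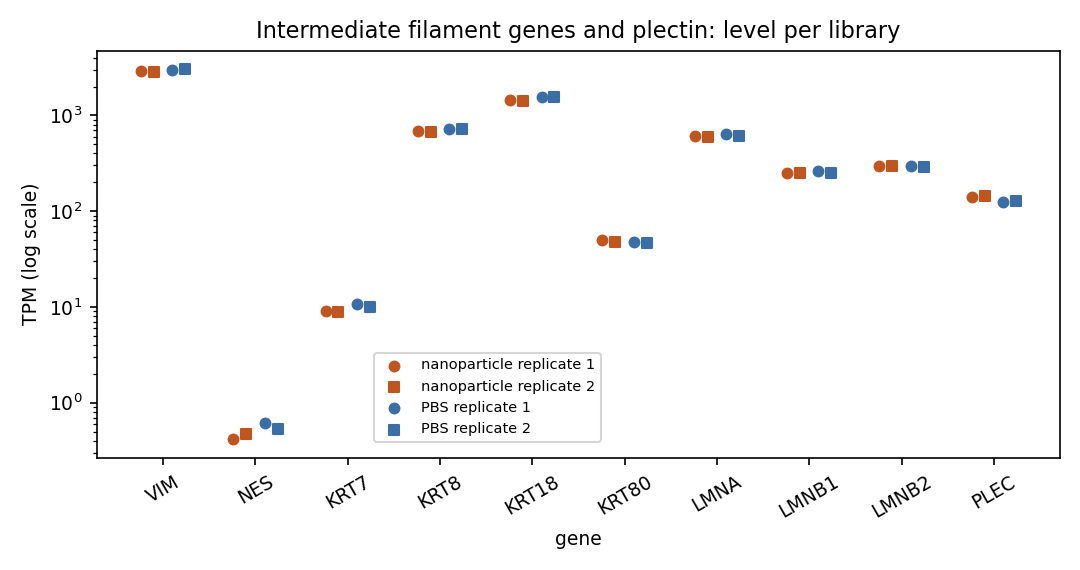
Level of each gene in TPM (log scale) in the 4 libraries, with nanoparticle libraries in orange left of PBS libraries in blue, circles for replicate 1 and squares for replicate 2. VIM is highest at 2840 to 3030 TPM and NES lowest at 0.417 to 0.616 TPM, and the distances between genes are far larger than those between libraries.

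With nanoparticles 4 of the 10 genes passed an adjusted p of 0.05 (edgeR quasi-likelihood test, Benjamini-Hochberg adjustment over 15778 tested genes), against 2.58% of all tested genes. VIM, KRT8 and KRT18 fell (background 0.830% lower), and PLEC rose (background 1.75% higher). The other 6 did not pass. By mean level the 4 genes that passed lay above 99.0% (KRT8) to 99.9% (VIM) of tested genes. LMNA, LMNB2 and LMNB1, at 99.5%, 98.8% and 96.5%, did not pass. The standard error of the log2 fold change was 0.019 to 0.026 for the 4, against 0.11 for KRT7 and 0.26 for NES. The background was not matched for level, and the 10 genes were chosen with earlier results of these data known. The median log2 fold change of the 10 genes was -0.084, beside 0.00056 over all tested genes. The levels in the next paragraphs are CPM (counts scaled to a fixed library total) after TMM scaling of the libraries, which compare libraries but not genes. In RNA from whole cultures, a lower level in every cell and the loss of a transcript from some of them cannot be told apart.

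KRT18 (ENSG00000111057, chr12:52948871-52952901, plus strand) encodes the type I keratin of simple epithelia. Its level was 927 and 915 CPM in the nanoparticle libraries, against 1019 and 1032 CPM in the PBS libraries. Both nanoparticle libraries lay below both PBS libraries, by much more than the distance within either group. KRT18 fell by 10.2% (log2 fold change -0.16, SE 0.022, edgeR adjusted p = 0.000526). It still passed without nanoparticle replicate 1 (log2 -0.16, edgeR adjusted p = 0.0135) or nanoparticle replicate 2 (log2 -0.15, 0.047), but not without PBS replicate 1 (log2 -0.17, 0.502) or PBS replicate 2 (log2 -0.15, 0.47), where no gene of the table passed.

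KRT8 (ENSG00000170421, chr12:52897187-52949954, minus strand) encodes the type II partner of keratin 18. It had 603 and 587 CPM in the nanoparticle libraries, against 641 and 643 CPM in the PBS libraries. The groups did not overlap, and the PBS libraries were nearly equal. KRT8 fell by 7.3% (log2 fold change -0.11, SE 0.026, edgeR adjusted p = 0.024). It passed in none of the fits that left out 1 library: the edgeR adjusted p was 0.0787 without nanoparticle replicate 1, 0.351 without nanoparticle replicate 2, 0.502 without PBS replicate 1 and 0.47 without PBS replicate 2, with log2 fold changes of -0.13, -0.09, -0.11 and -0.11. DESeq2's Wald test gave an adjusted p of 0.0724.

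Both genes of the pair fell, and their proportion was read from a ratio within each library. The per-length ratio of KRT8 to KRT18 was 0.478 and 0.471 in the nanoparticle libraries, against 0.462 and 0.457 in the PBS libraries. The ratio, which does not depend on library scaling, was 1.03 times as high with nanoparticles. The groups did not overlap, by a gap little more than the distance between the nanoparticle libraries. Neither this ratio nor those given below was corrected for the trend of fold change with transcript length, which is described further on. No test is given, since an exact permutation test of 2 against 2 libraries cannot give a two-sided p below 0.33. The 2 genes lie head to head on chromosome 12 and in GENCODE 29 their exons overlap over 525 bases on opposite strands. Of the 100-base windows of the KRT18 principal transcript 16.6% also occur in KRT8 transcripts on the opposite strand. Whether the counting used strand is not stated in the sources at hand. Both genes have processed pseudogenes, 51 rows for KRT8 and 67 for KRT18. Rows of KRT8 pseudogenes held 4.31% and 4.51% of the summed KRT8 counts with nanoparticles and 4.22% and 3.96% with PBS. KRT8P12 alone had 616 and 627 counts with nanoparticles and 573 and 525 with PBS. KRT18 pseudogene rows held at most 0.224%. With the pseudogene rows added to their parents the log2 fold change was -0.105 for KRT8 (edgeR adjusted p = 0.0286) and -0.155 for KRT18 (0.000528).

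VIM (ENSG00000026025, chr10:17228259-17237593, plus strand) encodes vimentin, and it fell as well. It had 2231 and 2188 CPM in the nanoparticle libraries, against 2319 and 2390 CPM in the PBS libraries, and the groups did not overlap. VIM fell by 6.2% (log2 fold change -0.09, SE 0.019, edgeR adjusted p = 0.0137). Like KRT8 it passed in none of the fits that left out 1 library, with edgeR adjusted p of 0.0679 without nanoparticle replicate 1, 0.307 without nanoparticle replicate 2, 0.502 without PBS replicate 1 and 0.474 without PBS replicate 2. On the log2 scale these fits gave -0.11, -0.08, -0.11 and -0.07. DESeq2's Wald test gave an adjusted p of 0.096. Of its 100-base windows 33.7% also occur in transcripts of another gene, 542 of these 596 in VIM-AS1 on the opposite strand. Exons of VIM-AS1, an antisense gene, overlap those of VIM over 641 bases, and VIM-AS1 itself had 151 and 140 counts with nanoparticles and 171 and 126 with PBS.

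The per-length ratio of VIM to the sum of KRT8 and KRT18 was 1.36 in both nanoparticle libraries, against 1.30 and 1.33 in the PBS libraries. The nanoparticle libraries thus lay above the PBS libraries in this ratio, by about the distance between the PBS libraries, and it was not tested.

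**Figure D2:**
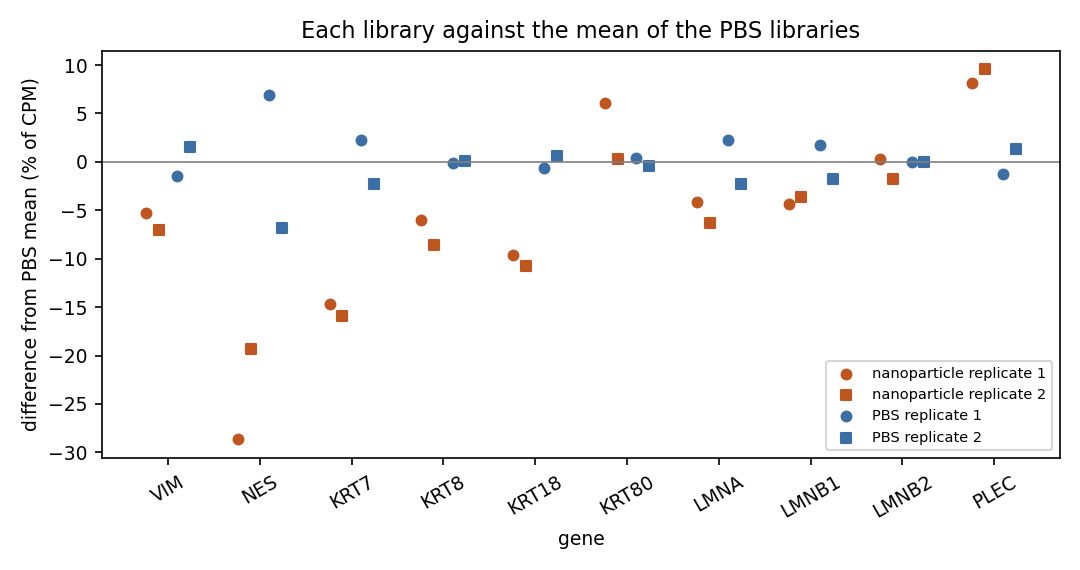
Percent difference of each library's TMM-scaled CPM from the mean of the PBS libraries, with nanoparticle libraries in orange and PBS libraries in blue. KRT18, KRT8 and VIM sit below 0 in both nanoparticle libraries and PLEC above 0 in both, while LMNB2 and KRT80 overlap between groups; NES, with 24 to 32 counts per library, is the most scattered.

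The other 2 keratins did not pass. KRT7 had 6.56 and 6.47 CPM in the nanoparticle libraries, against 7.87 and 7.52 CPM in the PBS libraries, and the groups did not overlap. Its log2 fold change of -0.24 was numerically larger than that of KRT18, but with 161 to 175 counts per library the standard error was 0.11 (95% interval -0.47 to -0.01, edgeR adjusted p = 0.283). KRT80 had 80.8 and 76.4 CPM in the nanoparticle libraries, against 76.5 and 75.8 CPM in the PBS libraries. The groups overlapped, and the log2 fold change of 0.05 had a 95% interval from -0.04 to 0.13 (edgeR adjusted p = 0.652). KRT80 was the only keratin of the 4 with a log2 fold change above 0; its difference from the other keratins was not tested. NES had 0.960 and 1.09 CPM in the nanoparticle libraries, against 1.44 and 1.25 CPM in the PBS libraries. The 95% interval of its log2 fold change ran from -0.94 to 0.15 (SE 0.26, edgeR adjusted p = 0.488).

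None of the 3 lamins passed (edgeR, 1 at an unadjusted p under 0.05). LMNA had 810 and 792 CPM in the nanoparticle libraries, against 864 and 825 CPM in the PBS libraries. The groups did not overlap, but PBS replicate 2 lay nearer to the nanoparticle libraries than to PBS replicate 1 (log2 fold change -0.08, SE 0.026, 95% interval -0.13 to -0.02, edgeR adjusted p = 0.121). LMNB1 had 297 and 299 CPM in the nanoparticle libraries, against 316 and 305 CPM in the PBS libraries (log2 -0.06, 95% interval -0.12 to 0.01, edgeR adjusted p = 0.351). LMNB2 had 577 and 565 CPM in the nanoparticle libraries, against 576 and 575 CPM in the PBS libraries. Its groups overlapped, and the 95% interval of the log2 fold change ran from -0.06 to 0.04 (edgeR adjusted p = 0.887). The per-length ratio of LMNA to the summed B-type lamins was 1.12 and 1.10 in the nanoparticle libraries, against 1.16 and 1.13 in the PBS libraries. The gap between the groups was smaller than the distance within either group. With the union of exons as length the mean ratio was 0.612 with nanoparticles and 0.632 with PBS. Exons of LMNB2 share 257 bases with TIMM13 on the same strand, so the counts of reads there are uncertain. Of the 4572 windows of 100 bases in the LMNB2 principal transcript, 0 also occur in transcripts of another gene.

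PLEC (ENSG00000178209, chr8:143915147-143976734, minus strand) went the other way. It had 886 and 898 CPM in the nanoparticle libraries, against 809 and 830 CPM in the PBS libraries. Both nanoparticle libraries lay above both PBS libraries. PLEC rose by 8.9% (log2 fold change 0.12, SE 0.024, edgeR adjusted p = 0.00689). It also passed by DESeq2's Wald test (adjusted p = 0.012). The edgeR adjusted p was 0.0619 without nanoparticle replicate 1, 0.195 without nanoparticle replicate 2, 0.502 without PBS replicate 1 and 0.47 without PBS replicate 2, with log2 fold changes of 0.13, 0.11, 0.10 and 0.14.

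In TMM-scaled CPM, 8 of the 10 genes had groups that did not overlap, 7 lower and 1 higher with nanoparticles. Over all tested genes 46.9% had groups that did not overlap on that scale, 23.2% lower and 23.7% higher. Overlap depended on the scale: in TPM the groups of LMNA and of LMNB1 overlapped, while those of KRT80 did not.

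Fold changes in these libraries ran with transcript length, and the filament genes differ widely in it. The principal transcript has 1562 bases for KRT18, 1754 for KRT7, 1868 for VIM and 2126 for KRT8, against 15249 for PLEC. Over genes above 5 CPM in 10 bins of length, the median log2 fold change was -0.039 in the bin of KRT18 and KRT7, -0.021 in that of VIM and KRT8, and 0.082 in that of PLEC. Of the genes in its own bin 2.5% had a lower log2 fold change than KRT7 and 8.0% than KRT18. The share was 12.9% for KRT8, 17.2% for VIM, 29.7% for LMNB2, 63.8% for PLEC and 65.4% for KRT80. LMNA and LMNB1 lay in a bin with a median of -0.004, where 15.0% and 21.8% of genes were lower than they were.

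When the trend with length was removed library by library, 1 of the 10 genes passed, against 1.38% of all tested genes, and with length and GC trends removed also 1, against 1.66%. It was KRT18 in both, at log2 -0.12 (edgeR adjusted p = 0.0098) and -0.10 (0.0087). PLEC then lay at log2 -0.005 (adjusted p = 0.957) and 0.06 (0.159). KRT8 lay at -0.09 (0.0966) and -0.08 (0.0893), and VIM at -0.06 (0.130) and -0.06 (0.0604). KRT7 lay at -0.21 (0.446) and -0.18 (0.512), and NES at -0.43 (0.51) and -0.41 (0.537). LMNB2 lay at -0.04 (0.577) and -0.01 (0.906). The log2 fold changes of LMNA (-0.08 and -0.06), LMNB1 (-0.05 in both) and KRT80 (0.03 and 0.04) moved little. Fold change and length move together in these libraries. The parts of length and treatment in the fall of KRT18, KRT8 and VIM and the rise of PLEC therefore cannot be told apart.

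**Figure D3:**
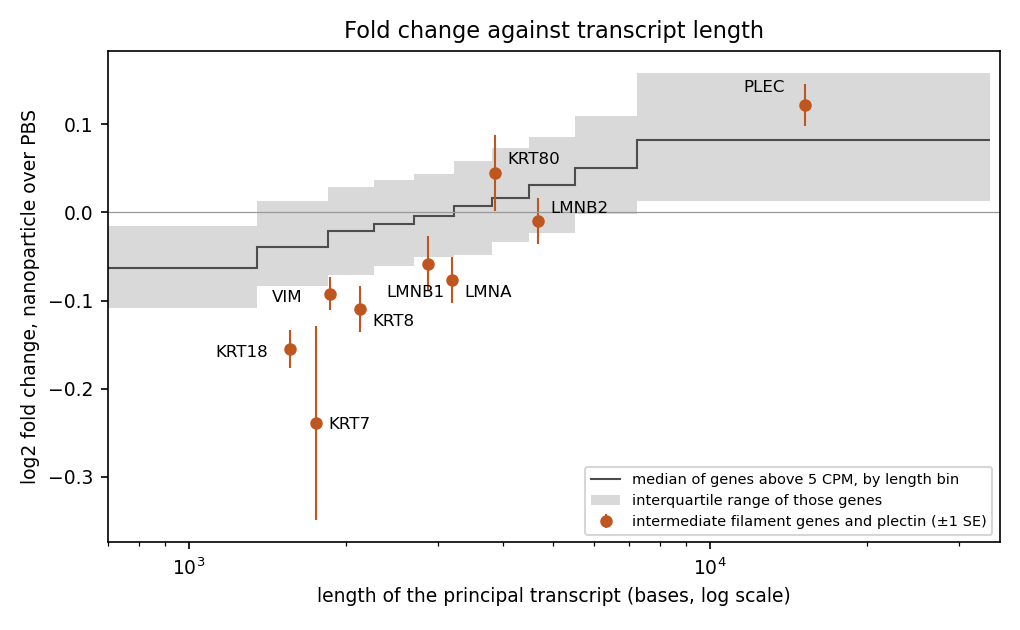
Log2 fold change, nanoparticle over PBS, against the length of the principal transcript (log scale), with the 9 genes above 5 CPM as orange points with bars of 1 standard error, and the median (line) and interquartile range (grey) of all genes above 5 CPM in 10 length bins. KRT18, KRT8, VIM, KRT7, LMNA and LMNB1 lie below the grey band of their bin and PLEC inside it.

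**Figure D4:**
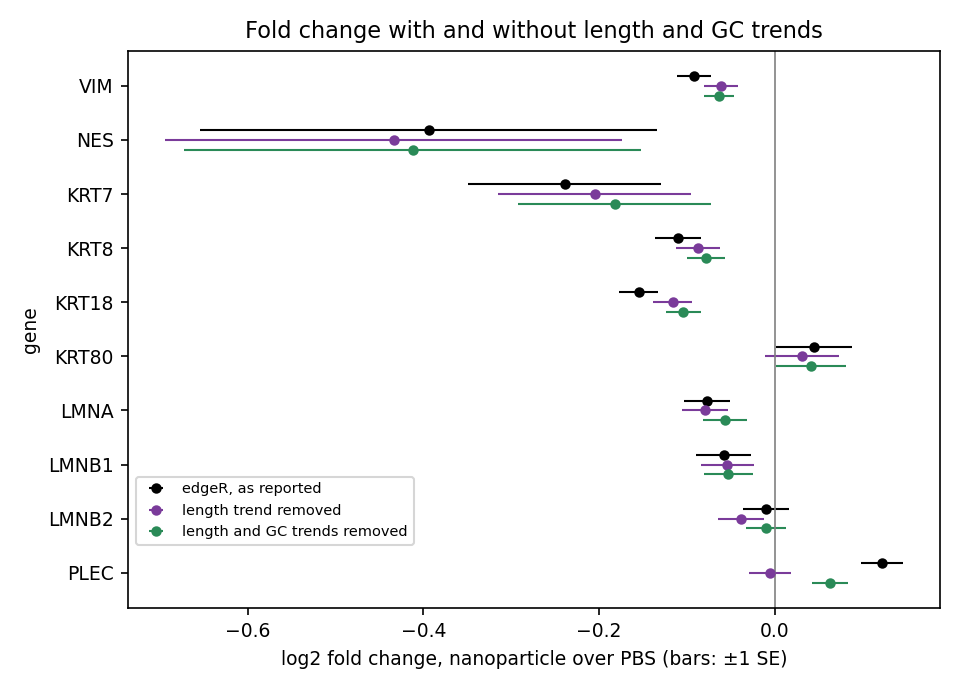
Log2 fold change, nanoparticle over PBS, of each gene in the edgeR fit as reported (black), with the length trend removed (purple) and with length and GC trends removed (green), with bars of 1 standard error. KRT18 stays between -0.16 and -0.10, and PLEC lies at 0.12, -0.005 and 0.06.

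Further filament genes were looked at as a list of 40 other keratins, neurofilament and muscle-type genes. Of these 10 were tested, none passed (edgeR, 3 at an unadjusted p under 0.05, beside 16.8% of all tested genes; DESeq2 and limma-voom called 0), and their median log2 fold change was -0.054. The H1299 libraries held RNA of neuronal filament genes. NEFH, the heavy neurofilament chain, was at 135 and 133 TPM with nanoparticles and 133 and 132 TPM with PBS. INA, alpha-internexin, was at 123 and 127 TPM with nanoparticles and 129 and 127 TPM with PBS. Both lay near PLEC and above KRT80 and KRT7 in every library. SYNM, synemin, a partner of vimentin and desmin, was at 16.8 and 16.4 TPM with nanoparticles and 17.0 and 15.8 TPM with PBS, and KRT15, a type I keratin of basal cells, at 11.1 and 11.4 TPM with nanoparticles and 11.9 and 10.9 TPM with PBS. KRT10, a type I keratin of stratified epithelium named after its values were seen, was at 17.7 and 18.9 TPM with nanoparticles and 21.8 and 19.1 TPM with PBS (log2 -0.18, edgeR adjusted p = 0.26). KRT10, BFSP1 and NEFM were the genes of the list at an unadjusted p under 0.05 (edgeR). BFSP1 lay lower, at log2 -0.23 (edgeR adjusted p = 0.158), and NEFM higher, at 0.27 (0.207). BFSP1 and NEFM too were named after their values were seen. Of the 40 genes 20 had 0 counts in all 4 libraries, among them KRT5, KRT6A, KRT14 and KRT16.

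Proteins that link filaments to membranes and other fibres were read from a list of 21 genes, of which 17 were tested. Of these 2 passed, both higher, beside 2.58% of all tested genes. DST, dystonin, a plakin, rose to 177 and 192 CPM with nanoparticles, against 146 and 152 CPM with PBS (log2 0.30, SE 0.039, edgeR adjusted p = 0.00013). MACF1, which crosslinks actin and microtubules, rose to 415 and 429 CPM with nanoparticles, against 391 and 386 CPM with PBS (log2 0.12, SE 0.029, edgeR adjusted p = 0.0269). Once length was accounted for DST lay at log2 0.16 (adjusted p = 0.0181) and MACF1 at -0.053 (0.445). Without PBS replicate 1 or PBS replicate 2 neither passed (adjusted p of 0.502 and 0.47 for both), and MACF1 did not pass without nanoparticle replicate 1 (0.0749) or 2 (0.358). ITGA6, the integrin alpha chain of hemidesmosomes, had 300.1 and 304.5 CPM with nanoparticles and 328 and 322 CPM with PBS (log2 -0.10, edgeR adjusted p = 0.0714), and it passed as lower with the length trend removed (log2 -0.14, adjusted p = 0.0153). It was named after its values were seen. The other plakins of the list did not pass or were not tested: DSP, desmoplakin, lay at log2 0.12 (edgeR adjusted p = 0.32) and PPL, periplakin, at -0.18 (0.565), while EVPL and EPPK1 were below the filter. The median log2 fold change of the 17 genes was 0.024.

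Of 19 tested partners of the nuclear lamina 1 passed, beside 2.58% of all tested genes, so that 1 call in the list was near the background. SYNE2, nesprin-2, which couples the nucleus to the cytoskeleton, rose to 22.8 and 25 CPM with nanoparticles, against 17.4 and 16.0 CPM with PBS (log2 0.52, SE 0.077, edgeR adjusted p = 0.000666). Once length was accounted for it lay at log2 0.35 (adjusted p = 0.0181), and without PBS replicate 1 or PBS replicate 2 it did not pass (0.502 and 0.47). None of the 5 enzymes of lamin maturation passed (edgeR, 0 at an unadjusted p under 0.05; DESeq2 and limma-voom called 0). Of 24 kinases and phosphatases that act on filaments 1 passed, again near the background: AURKB, a mitotic kinase that phosphorylates vimentin, fell to 177 and 179 CPM with nanoparticles, against 192 and 199 CPM with PBS (log2 -0.13, SE 0.034, edgeR adjusted p = 0.0367). Once length was accounted for AURKB missed the threshold (log2 -0.08, 0.273), and it did not pass in any fit that left out 1 library (adjusted p 0.182 to 0.502). Median log2 fold changes were 0.017, 0.032 and 0.009 for the lamina, maturation and kinase lists.

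Markers of other cell types were read beside these values. CDH1, the epithelial cadherin, had 5 and 6 counts with nanoparticles and 8 and 1 with PBS, and KRT19 had 5 and 3 with nanoparticles and 2 and 9 with PBS. The 10 epithelial markers summed to 6.64 and 6.19 CPM with nanoparticles and 6.83 and 6.44 CPM with PBS, with 3 of them at 0 in every library. The 8 mesenchymal markers summed to 1090 CPM in both nanoparticle libraries and to 1120 and 1140 CPM in the PBS libraries. The receptor kinase AXL held most of this sum, at 780 and 776 CPM with nanoparticles and 830 and 831 CPM with PBS, and it alone of the 8 passed, lower (log2 -0.09, edgeR adjusted p = 0.0309). The other 7 summed to 312 and 316 CPM with nanoparticles and to 290 and 308 CPM with PBS. Among them FN1 (fibronectin) had a log2 fold change of 0.11 (edgeR adjusted p = 0.104). ZEB1, a repressor of epithelial genes, lay at 0.14 (0.205). CDH2 lay at -0.08 (edgeR adjusted p = 0.512), TWIST1 at -0.06 (0.78) and ZEB2 at -0.01 (0.959). SNAI2 and SPARC lay under 1.5 CPM in every library. All 7 were named after their values were seen, and their values were not corrected for transcript length. The part of these markers in the fall of VIM was not tested. Markers of fibroblasts, blood and endothelium summed to at most 1.75 CPM per list in any library.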

How the data were processed

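Each deposited file gives raw counts for 1 library, a whole number for each Ensembl gene, with no normalization. Per the labels' protocols, libraries came from 300 ng of RNA with a stranded mRNA kit. The submitters' processing notes list HTSeq 2.0.2, STAR 2.7.6a, cutadapt 3.5, bcl2fastq 2.20 and Picard, and genome build GRCh38. Neither the annotation release nor the use of strand was stated in the sources at hand. Groups follow the treatment label, although nanoparticle titles also say control.

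Reads given to no gene (13.7% to 14.8%) were left out. Genes passing filterByExpr were scaled by TMM and tested with edgeR 4.0.16 (glmQLFit, glmQLFTest, R 4.3.3), two-sided, threshold 0.05, biological coefficient of variation 2.46%. Intervals are at the 95% level. Lengths, GC, coordinates and transcript overlaps came from GENCODE 29, whose release may differ from the counting's; 98.2% of tested genes had a length. Length and GC trends were removed per library as robust splines (4 degrees of freedom, MASS 7.3.60.0.1) over genes above 5 CPM. The other alternatives were scalings, filters, DESeq2 1.42.0, limma-voom (limma 3.58.1), a replicate block and leaving out each library. The procedure was tested on simulated data whose fold changes were larger than those of the members that passed. That test therefore does not cover changes of their size. Sequences of the genes are not reported here. The chi-square per degree of freedom was 2.05 between the nanoparticle and 1.86 between the PBS libraries, so none was a copy. The members, lists and alternatives were chosen with earlier results of these data known. All 10 members are named. Of each list up to 4 genes past the threshold are named, and of other filament genes also the 4 with the highest CPM. Among pseudogenes only the one with the highest counts is named. Further genes of the lists and markers, such as the other plakins, were named outside this rule. Figures were drawn with matplotlib 3.10.9.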

Additional observations from a re-analysis of the deposited data

How the results depend on the processing

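The direction of VIM, KRT8, KRT18, KRT7, LMNA, LMNB1, KRT80 and NES was the same under every alternative that gave a value. LMNB2 ran from -0.026 to 0.005 on the log2 scale when 1 library was left out (0.005 without nanoparticle replicate 2). Direction turned also for PLEC, at -0.005 with the length trend removed, and for MACF1, at -0.053 with the length trend and -0.040 with length and GC trends removed. KRT18 passed in 11 of 14 alternatives, PLEC in 7, and VIM and KRT8 in 6 each. The count of genes past the threshold was 407 (276 higher, 131 lower). It was 90 by DESeq2 (66 higher, 24 lower), 217 with the length trend removed (118 higher) and 262 with length and GC trends removed (146 higher). With no low-count filter it was 0 higher and 0 lower (edgeR, 2297 at an unadjusted p under 0.05). DESeq2 was run with the filter only. With a mean of at least 50 counts 212 genes were lower. Leaving out each library gave 0 to 200 genes, 0 to 155 higher and 0 to 45 lower. Of the 10 members 4 passed as reported, 2 by DESeq2, 1 with either trend removal, 0 with no low-count filter and 0 to 1 without a library. Linkers numbered 2 (both higher) as reported, 1 by DESeq2, 0 with no filter and 0 to 1 without a library. ITGA6 passed as lower in 6 alternatives: beside the reported pair with upper-quartile scaling, a mean of at least 50 counts, limma-voom or the replicate block, and beside DST alone with either trend removal. Lamina partners numbered 1 as reported, 0 with no filter and 0 to 1 without a library. Kinases and phosphatases numbered 1 as reported and 0 by DESeq2, with either trend removal, with no filter and without any 1 library. No shift shared by replicate number was seen between the groups (correlation of the deviations 0.036 over 11107 genes). That value cannot show whether the libraries were prepared in pairs. With the replicate block 759 genes passed (487 higher, 272 lower), the same 4 members and 2 lamina partners. Upper-quartile scaling gave 223 higher and 190 lower genes. The cause of these shifts was not tested. Counts of NES and KRT7 limit what could be seen of them.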
